A study of Bos taurus with 12 samples.

Results

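The 9 genes described here encode core proteins of the machinery that writes and erases N6-methyladenosine (m6A) on mRNA. The question was how their own transcripts were expressed and methylated before and after bovine myoblast differentiation. They were chosen by name: the catalytic pair METTL3 and METTL14, the regulatory subunits WTAP, VIRMA, RBM15, ZC3H13 and CBLL1, and the demethylases FTO and ALKBH5. All 9 are among the 18436 genes of the expression table. The m6A peak lists held 14 peaks annotated to these genes of 19739 in growth medium, and 17 of 20790 in differentiation medium.

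Primary myoblasts from the longissimus dorsi muscle of newborn Qinchuan cattle were grown to 80% confluence in growth medium with fetal bovine serum (GM, day 0). For the DM group the same type of culture was switched to differentiation medium with horse serum for 4 days and harvested as myotubes at 100% confluence. No genotype was altered in either group, and the methods describe the cells as coming from a single newborn animal. Each group had 3 input and 3 immunoprecipitated (IP) libraries, 12 samples in all, so that p-values measure the spread between 3 libraries per group and not between animals.

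m6A is added to mRNA in the nucleus by a complex in which METTL3 carries the catalytic activity and METTL14 helps to hold the RNA. WTAP, VIRMA, RBM15, ZC3H13 and CBLL1 (also known as HAKAI) anchor the complex and steer it to its sites, while FTO and ALKBH5 are dioxygenases that remove methyl groups from RNA. The mark is typically densest in long exons and near the stop codon, and it takes part in the splicing, export, translation and decay of transcripts, including those used when muscle cells differentiate.

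Marker genes followed the labels in the main. Of 12 myotube markers 9 were called higher in DM and 1 (ACTA1) lower, 3 of 4 myoblast markers were lower, and all 5 proliferation markers were lower, their summed level going from 79.3 to 89.1 FPKM in GM to 13.3 to 15.8 in DM. Among all tested genes, 16.1% were called higher and 26.7% lower. FPKM is fragments per kilobase of exon scaled to the mapped reads of a library. The myogenic factor MYOG was already at 197 ± 8.95 FPKM (SD, n = 3) in GM and reached 243 ± 14.9 in DM. Fibroblast markers had summed levels of 9749 to 9954 FPKM in GM and 11128 to 11679 in DM, and 3 of 6 were called higher and 1 lower. Most of that sum was COL1A1 and COL3A1, with GM means of 6791 and 2397 FPKM. COL3A1, DCN (531 FPKM in GM, 667 in DM) and PDGFRA (36.9 in GM, 44.3 in DM) were those called higher. THY1 was at 76.1 in GM and 75.7 in DM. TCF21, the marker called lower, was at 2.15 in GM and 1.68 in DM. Endothelial markers all stayed under 0.5 FPKM. The adipocyte marker PPARG was called lower, with means of 1.25 FPKM in GM and 0.48 in DM. The macrophage marker CD68 was at 1.17 in GM and 1.47 in DM and was not called. The part of fibroblasts and of the mix of cells in the results below was not tested, and in bulk RNA fewer cells expressing a gene and less RNA per cell cannot be told apart.

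The expression of the writers and erasers changed little between myoblasts and myotubes. With limma on log2(FPKM + 1) and Benjamini-Hochberg adjustment over 12302 genes, 1 of the 9 genes, VIRMA, was called lower in DM at an adjusted p under 0.05 and none was called higher. Of all tested genes 26.7% were called lower and 16.1% higher. None of the 9 passed a 1.5-fold change as well, against 4.89% of all tested genes higher, 6.88% lower and 11.8% in either direction, and 4 of the 9 had an unadjusted p under 0.05 (VIRMA, RBM15, FTO and ALKBH5), as had 50.7% of all tested genes. The median change of the 9 genes was -0.05 on the log2 scale, the same as that of all tested genes to 2 decimals, and their median absolute change was 0.12 against 0.19. In the plot of levels by library, the 2 erasers stood above all 7 writers in every library.

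**Figure D1:**
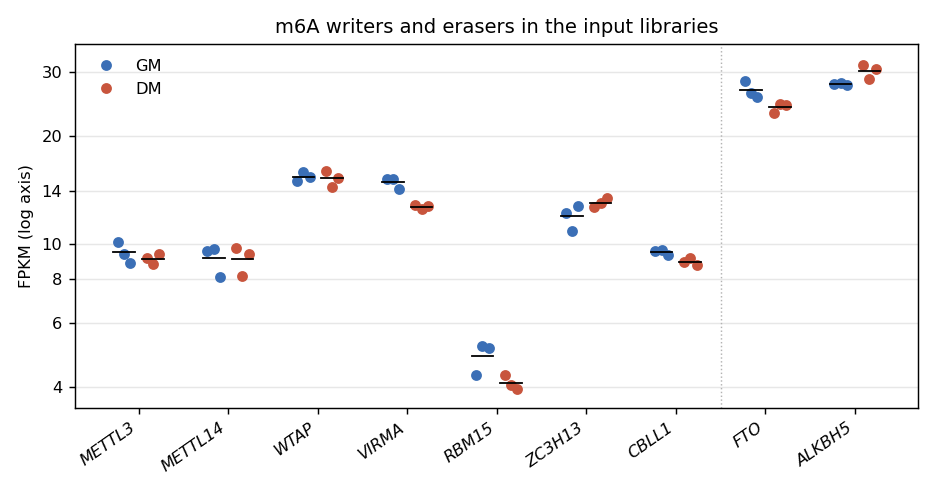
FPKM (log axis) of the 9 genes in each input library, with GM in blue, DM in red, a black line at each mean and a dotted line between writers and erasers. VIRMA fell from a mean of 14.9 to 12.7 FPKM with no overlap between groups, while METTL3, METTL14 and WTAP have overlapping values.

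The catalytic pair was steady. METTL3 (ENSBTAG00000015148, chromosome 10, 25661794 to 25677142 on the plus strand of ARS-UCD1.2, the build of all positions given here) was at 10.1, 9.39 and 8.85 FPKM in the GM libraries and at 9.15, 8.77 and 9.35 in the DM libraries. METTL14 (ENSBTAG00000014080, chromosome 6, 6640184 to 6679178, minus strand) was at 9.56, 9.66 and 8.08 FPKM in GM and at 9.76, 8.14 and 9.36 in DM. The groups overlapped for both genes, and each group had 1 library near 8 FPKM of METTL14. The fitted change was -0.05 ± 0.06 for METTL3 (log2, SE, limma with Benjamini-Hochberg adjustment, adjusted p = 0.568) and -0.00217 ± 0.09 for METTL14 (adjusted p = 0.987). Their 95% intervals ran from -0.20 to 0.10 and from -0.21 to 0.20, so small changes within those bounds remain compatible with the data. FPKM of METTL3 over that of METTL14 in the same library was 1.04 ± 0.06 in GM and 1.01 ± 0.07 in DM (SD, n = 3), so the levels per length of the 2 partners, which form a heterodimer, were nearly equal in both states.

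Of the regulatory subunits, VIRMA, the large scaffold of the complex, was the only 1 called on FPKM. VIRMA (ENSBTAG00000003789, chromosome 14, 69781691 to 69846027, plus strand) was at 15.2, 15.2 and 14.2 FPKM in GM and at 12.9, 12.5 and 12.7 in DM. Every DM library lay below every GM library, and the mean FPKM was 14.6% lower, since it decreased by 0.21 ± 0.05 on the log2 scale (SE, limma with Benjamini-Hochberg adjustment, adjusted p = 0.0122, 95% interval -0.33 to -0.09). Of all tested genes 45.1% had a larger absolute change. The call depended on the scaling of the libraries, since with FPKM rescaled to TPM (each library rescaled to the same sum) the change of VIRMA was -0.10 and its adjusted p 0.252. Among tested genes, the 3 whose centred log2(FPKM + 1) followed VIRMA most closely over the 6 input libraries were FNTA, ALPK3 and KDM1A, with Euclidean distances of 0.028, 0.029 and 0.030.

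RBM15, an RNA-binding subunit that directs the complex to its targets, had the lowest level of the 9 genes. RBM15 (ENSBTAG00000012555, chromosome 3, 33088523 to 33095448, minus strand) was at 4.32, 5.19 and 5.14 FPKM in GM and at 4.32, 4.04 and 3.94 in DM. The low GM library met the highest DM library, and the change of -0.20 ± 0.08 (log2, SE) did not pass the test (limma with Benjamini-Hochberg adjustment, adjusted p = 0.0687). Without GM replicate 1 the change was -0.28 with an adjusted p of 0.0255, so that library decided the call.

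The remaining subunits did not pass the test on FPKM. WTAP, which ties METTL3 and METTL14 to nuclear speckles (ENSBTAG00000007974, chromosome 9, 95997044 to 96023437, plus strand), was at 15.0, 15.9 and 15.4 FPKM in GM and at 15.9, 14.4 and 15.3 in DM, with overlapping ranges. ZC3H13, a zinc finger protein that retains the complex in the nucleus (ENSBTAG00000007067, chromosome 12, 16035557 to 16055518, minus strand), was at 12.2, 10.8 and 12.8 FPKM in GM and at 12.7, 13.0 and 13.4 in DM, with only the highest GM value inside the DM range. CBLL1, a RING-type protein of the complex (ENSBTAG00000018348, chromosome 4, 48759142 to 48773761, plus strand), was at 9.56, 9.59 and 9.30 FPKM in GM and at 8.88, 9.16 and 8.74 in DM, all DM values below all GM values. The changes were -0.02 for WTAP, 0.12 for ZC3H13 and -0.08 for CBLL1 on the log2 scale, with adjusted p of 0.831, 0.198 and 0.263 (limma with Benjamini-Hochberg adjustment).

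The 2 erasers were the most abundant of the 9 genes and their means differed in opposite directions. FTO (ENSBTAG00000012501, chromosome 18, 22040310 to 22464466, plus strand) was at 28.5, 26.3 and 25.7 FPKM in GM and at 23.2, 24.5 and 24.3 in DM. ALKBH5 (ENSBTAG00000025046, chromosome 19, 34422370 to 34439576, minus strand) was at 27.8, 28.0 and 27.7 FPKM in GM and at 31.5, 28.8 and 30.7 in DM. All DM values of FTO lay below its GM values, and all DM values of ALKBH5 above its GM values. Neither change passed the test on FPKM, with -0.15 ± 0.06 for FTO (log2, SE, limma with Benjamini-Hochberg adjustment, adjusted p = 0.0577) and 0.12 ± 0.05 for ALKBH5 (adjusted p = 0.093). Without GM replicate 3, FTO was called, with a change of -0.18 and an adjusted p of 0.0283. Counting separation alone, 3 of the 9 genes (VIRMA, CBLL1 and FTO) had all DM values below all GM values, as had 33.0% of tested genes, and 1 (ALKBH5) had all above, as had 21.1%.

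The scaling of the libraries decided which of these small changes were called. FPKM summed to 415740 to 434458 over the genes of a GM library and to 386436 to 390827 in DM, and the median change of all genes was -0.05 on FPKM, 0.000741 with median-ratio size factors and 0.06 on TPM. Of all genes called, 37.6% were higher in DM on FPKM, 49.0% with size factors and 59.5% on TPM. ALKBH5 was called higher with size factors (0.18, adjusted p = 0.0168, limma with Benjamini-Hochberg adjustment) and on TPM (0.25, adjusted p = 0.0106), scalings in which 20.8% and 24.3% of tested genes were called higher. ZC3H13 was called higher on TPM alone of these scalings (0.25, adjusted p = 0.019, limma with Benjamini-Hochberg adjustment), and VIRMA stayed called with size factors (-0.15, adjusted p = 0.0386), where 21.6% of tested genes were called lower. Relative to the median of all genes on the same scale, VIRMA stood at -0.16, -0.15 and -0.16 and RBM15 at -0.15, -0.15 and -0.17 on the 3 scales. FTO stood at -0.10, -0.09 and -0.09, and ZC3H13 and ALKBH5 both at 0.17, 0.18 and 0.19. METTL3, METTL14 and WTAP were below 0 on FPKM and above 0 with size factors and on TPM, and CBLL1 turned above 0 on TPM.

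**Figure D2:**
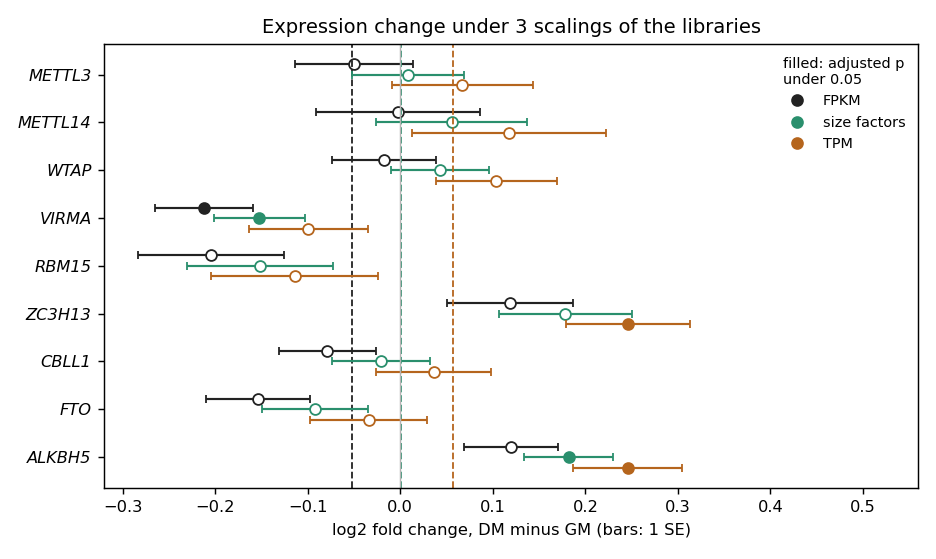
Log2 fold change, DM minus GM, of the 9 genes on FPKM, with median-ratio size factors and on TPM (points, filled where the Benjamini-Hochberg adjusted p is under 0.05, bars of 1 SE), with dashed lines at the median of all tested genes. VIRMA, RBM15 and FTO stand to the left and ZC3H13 and ALKBH5 to the right of the line of the same colour on all 3 scales. The other genes lie closer to it.

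Ratios of genes within a library are free of that scaling. FPKM of FTO over that of ALKBH5 was 1.02, 0.938 and 0.928 in the GM libraries and 0.735, 0.849 and 0.792 in the DM libraries, a mean of 0.964 ± 0.0534 against 0.792 ± 0.0566 (SD, n = 3). The groups did not overlap and the ratio was 17.8% lower in DM, with an exact two-sided permutation p of 0.1, the smallest that 3 against 3 libraries allow. In relation to ALKBH5, FPKM of 6 of the other 8 genes was lower in every DM library than in any GM library (METTL3, WTAP, VIRMA, RBM15, CBLL1 and FTO), as was that of 45.3% of tested genes. In relation to METTL3, VIRMA was 11.3% lower (1.57 ± 0.07 in GM, 1.40 ± 0.03 in DM), FTO 6.93% lower and ALKBH5 13.1% higher, each without overlap, as were 25.0% of tested genes on the lower and 23.2% on the higher side.

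The order of levels was nearly the same in both states. In GM the means ran from ALKBH5 and FTO (27.8 and 26.8 FPKM) through WTAP and VIRMA (15.4 and 14.9) and ZC3H13 (11.9) to CBLL1, METTL3 and METTL14 (9.48, 9.46 and 9.10) and RBM15 (4.88). The ranges of ALKBH5 and FTO, of WTAP and VIRMA, and of CBLL1, METTL3 and METTL14 overlapped in GM. In DM, ALKBH5 (30.3 FPKM) was separate from FTO (24.0), WTAP (15.2) was separate from VIRMA, and VIRMA (12.7) now overlapped ZC3H13 (13.0), while METTL3, METTL14 and CBLL1 again overlapped. Against all tested genes, ALKBH5 was at the 81.5th percentile of level in GM and RBM15 at the 35.4th.

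Transcripts of the writers and erasers carried m6A peaks, as did those of most tested genes. A peak is a stretch of exon in which IP reads exceed input reads, called by the authors with exomePeak on the pooled libraries of a group, and its fold enrichment is their ratio of IP over input. In GM, 8 of the 9 genes carried a peak (all but ALKBH5), and in DM all 9, against 70.9% and 78.7% of tested genes. Every one of the 14 GM peaks overlapped a DM peak, and 4 DM peaks, in METTL3, WTAP, VIRMA and ALKBH5, had no GM overlap. In the whole lists, 85.3% of GM peaks overlapped a DM peak and 28.7% of DM peaks overlapped no GM peak. Each list gives 1 pooled value per peak, so no error can be attached to a difference between GM and DM and none was tested. The median fold enrichment of the genes' peaks was 3.19 in GM and 2.34 in DM, beside 3.27 and 3.38 for the whole lists. The 13 DM peaks that overlapped a GM peak had a median of 4.58, and the other 4 lay between 1.25 and 2.34. In the whole DM list, peaks without a GM overlap also had a low median, 2.33.

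**Figure D3:**
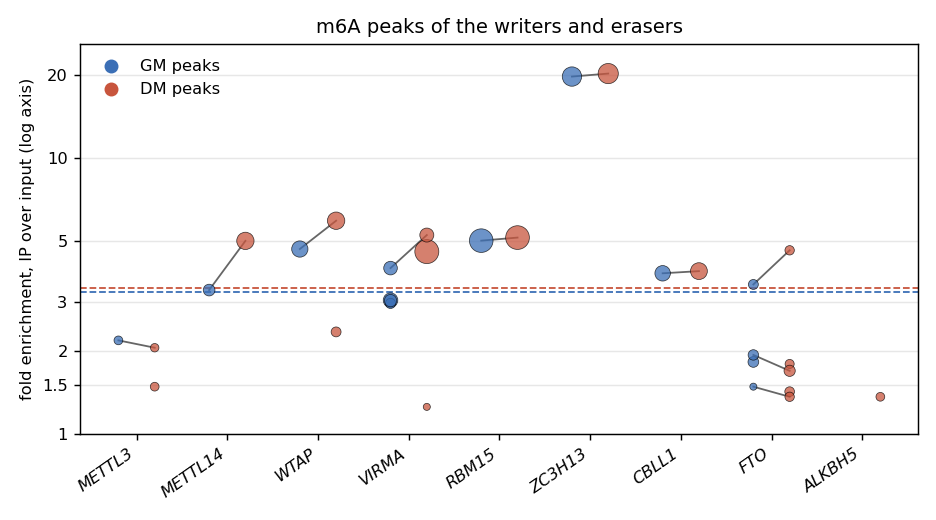
Fold enrichment of IP over input (log axis) of each peak of the 9 genes in GM (blue) and DM (red), with dot area growing with exonic length, grey lines joining peaks that overlap 1 to 1, and dashed lines at the list medians of 3.27 and 3.38. ZC3H13 stands alone near 20 in both states and ALKBH5 has a weak DM peak only.

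ZC3H13 carried by far the strongest peak of the group. Its GM peak (chromosome 12, 16035766 to 16055518) spanned 7 exon blocks with 1854 exonic bases and had a fold enrichment of 19.8. In DM it spanned 2033 bases from 16035587 to 16055518, with a fold enrichment of 20.3. Only 1.28% of GM peaks and 1.26% of DM peaks were higher, and a higher one was found in 246 of 10601 peak-bearing genes in GM and 252 of 11800 in DM. The peak began at the annotated first base of the gene and ended 209 bases before its last base in GM and 30 before in DM. The peak thus spans nearly the whole annotated gene in both lists. Its last block had 141 bases in GM and 320 in DM, where it reached further toward the 3′ end. The label was exon in GM and 3′ UTR in DM, and the reason for that difference was not tested.

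RBM15, CBLL1 and WTAP had broad peaks of medium strength. The RBM15 peak filled 2859 bases of exon 1 of 2 in GM (chromosome 3, 33092590 to 33095448), with a fold enrichment of 5.02. That was longer than 99.2% of all GM peaks. In DM the peak had 2889 bases and a fold enrichment of 5.15. It lay in 2 blocks, of 2866 bases from the gene start and of 23 bases at the gene end. The CBLL1 peak was annotated to the 3′ UTR, with 1109 bases and 3.82 in GM (chromosome 4, 48768878 to 48773371) and 1349 bases and 3.89 in DM. WTAP had a peak of 8 exon blocks from the first base of the gene, with 1246 bases and a fold enrichment of 4.68 in GM (chromosome 9, 95997044 to 96022636) and 1454 bases and 5.93 in DM. A further DM peak of WTAP, with a fold enrichment of 2.34, covered the last 327 bases of the gene and met no GM peak.

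METTL14 and METTL3 differed in strength although their transcript levels were alike. METTL3 had a peak of 209 bases at the very end of its 3′ UTR in GM (chromosome 10, 25676934 to 25677142) with a fold enrichment of 2.18, and a peak of 179 bases there in DM with 2.05. In DM it also had a peak of 209 bases in exon 3 of 11 (25672128 to 25672336), at 1.48, which met none in GM. METTL14 had a peak of 540 bases in 2 blocks in GM (chromosome 6, 6641322 to 6650354) with a fold enrichment of 3.32, and of 1439 bases in 5 blocks in DM (6640663 to 6659282) with 5.01. The METTL14 ratio of 1.51 was the only 1 of the genes' pairs past 1.5, but the GM peak accounts for 37.5% of the bases of the DM peak, so the 2 values are taken over different stretches.

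VIRMA, the gene called lower on FPKM, had 4 peaks in GM and 3 in DM. The first 3 GM peaks, with fold enrichments of 3.05, 2.97 and 3.04, lay in the exons between 69802144 and 69825267 of chromosome 14. A single DM peak of 2957 bases in 9 blocks (69807980 to 69826113) overlapped all 3, with a fold enrichment of 4.58. The last GM peak, at the 3′ UTR (69841211 to 69845191), had 3.99 and its DM partner 5.26, a ratio of 1.32, and 39.3% of all pairs had a larger absolute log2 ratio. Before it the DM list had a peak of 61 bases in exon 19 of 23 with a fold enrichment of 1.25, the weakest peak of the group and the only 1 with a false discovery rate above 0.001 (0.0107). The merged peak is taken over a longer stretch than the 3 it overlaps. The input level of the gene was lower in DM. In fold enrichment the IP is divided by the input, and no deposited value separates those parts.

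The erasers carried weaker peaks than most writers, apart from the end of FTO. FTO had 4 peaks in GM, with fold enrichments of 1.82, 1.48, 1.93 and 3.48 from 5′ to 3′, and 5 in DM, with 1.79, 1.42, 1.36, 1.69 and 4.63. The strongest lay in the 3′ UTR at the last base of the gene (chromosome 18, 22464137 to 22464466 in GM, 330 bases), and its ratio of DM over GM was 1.33. The inner peaks of FTO that paired 1 to 1 were slightly lower in DM, with ratios of 0.919 and 0.876. In the first of these the shared 61 bases are 22.6% of the DM peak, so its values too come from different stretches. Having 3 or more peaks, as FTO and VIRMA had in both lists, was seen in 21.0% of peak-bearing genes in GM and 17.9% in DM. ALKBH5 had no GM peak and a single DM peak of 209 bases in its 3′ UTR (chromosome 19, 34422460 to 34422668), at 1.36 with a false discovery rate of 0.000214, and 94.5% of DM peaks were higher. A DM peak without a GM peak was found in 10.1% of tested genes. A missing GM peak was common at the level of ALKBH5: of the 2280 tested genes expressed at or above it in GM, 34.6% had none.

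In all, the 9 genes gave 10 pairs of exactly 1 GM and 1 DM peak, in 8 genes. Of these, 7 had the higher fold enrichment in DM and 3 the lower, beside 56.5% of all 10239 pairs with the higher one in DM. A ratio of 1.5 was passed by 1 pair, beside 14.2% of all pairs on the higher and 10.8% on the lower side. The median log2 ratio was 0.04 for the genes' pairs and 0.07 for all pairs, and the median absolute log2 ratio 0.16 and 0.31. After division by the median of all pairs, 4 of the 10 were above 1 and 6 below, and no pair passed 1.5.

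The lists also differed in breadth. DM peaks covered more exon bases than GM peaks in all 8 genes with a peak in both lists, from 1.01 times (RBM15) to 2.66 times (METTL14), with a median of 1.36. Across all genes with a peak in both lists, 72.6% had more covered bases in DM and the median was 1.21 times. Over the 9 genes, 11771 bases were covered in GM, 15535 in DM and 11533 in both, so nearly all bases covered in GM were covered again in DM. The same held in general: over all 1 to 1 pairs, a median of 100% of the bases of the GM peak lay in the DM peak.

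**Figure D4:**
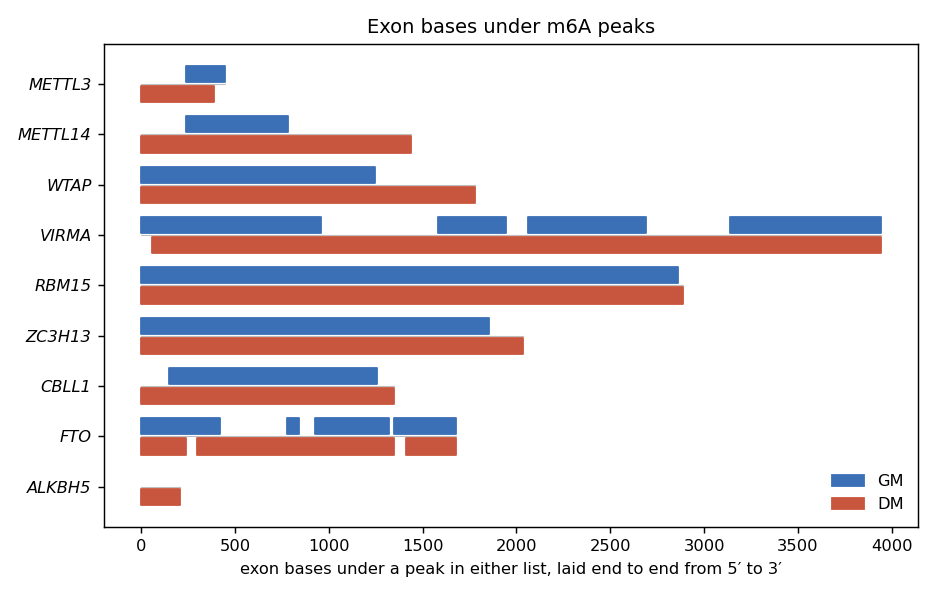
Exon bases under a peak of GM (blue) or DM (red) for each gene, with all bases covered in either list laid end to end from 5′ to 3′ (introns and uncovered exon left out, so neighbouring peaks can adjoin). The DM bars hold all or most of the GM bars, and METTL14 gains the most relative to GM among the 8 genes with both.

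Most of the genes had a peak near the 3′ end, as had most peak-bearing genes. In GM, 6 of the 8 methylated genes had a peak within 1000 bases of the annotated end (all but METTL14 and RBM15, at 1138 and 4067 bases), and in DM all 9 had, where for RBM15 the reach came from a block of 23 bases. Among all peak-bearing genes the share with one that close was 73.9% in GM and 79.8% in DM. At the 5′ start, 4 of the 8 genes in GM and 4 of the 9 in DM (WTAP, RBM15, ZC3H13 and FTO in both) had a peak within 1000 bases, against 38.7% and 42.4%. Distances were taken to the edge of a peak. The long peaks of WTAP and ZC3H13 in both lists, and that of RBM15 in DM, therefore counted at both ends. No other annotated gene of the table overlapped any of the 9 loci, and the strand of every one of the 31 peaks matched the gene. Sequence motifs in the peaks were not analysed here.

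Other genes of the pathway were taken from a fixed list. Of 37 listed genes 33 were in the table and tested, and 2 were called higher and 9 lower in DM at an adjusted p under 0.05 (limma with Benjamini-Hochberg adjustment), beside 16.1% higher and 26.7% lower among all tested genes. The count called higher was 0 or 1 in every fit without a library, and the count called lower was 5 on TPM. The 7 further methyltransferases and cofactors held no call. Among them, METTL16, which methylates U6 and MAT2A RNA, changed by -0.12 (adjusted p = 0.295, limma with Benjamini-Hochberg adjustment), RBM15B, the paralog of RBM15, by -0.12 (adjusted p = 0.0837), and PCIF1, the cap methyltransferase, by -0.04 (adjusted p = 0.605). None of 7 further AlkB-family dioxygenases was called. Of 16 readers 2 were called higher and 7 lower, to be read against the same 16.1% and 26.7%. Those called higher were FXR2 and EIF3A. Those called lower were HNRNPA2B1 at -0.56 on the log2 scale, IGF2BP1, IGF2BP2 and IGF2BP3 at -0.45, -0.47 and -0.41, YTHDC2 at -0.29, LRPPRC at -0.26 and PRRC2A at -0.21. All of these readers were named after their values were seen.

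Of 3 genes of methyl donor supply and turnover 2 were called lower, beside 26.7% of all tested genes. AHCY, which clears the S-adenosylhomocysteine left by methylation, was at 59.3, 62.5 and 62.5 FPKM in GM and at 26.9, 30.8 and 28.4 in DM. The groups lay far apart, with a log2 change of -1.07 ± 0.06 (SE, limma with Benjamini-Hochberg adjustment, adjusted p = 4.5e-06). AHCY was the only listed gene past 1.5-fold, beside 6.88% of all tested genes called lower past it and 4.89% higher. MAT2A, which makes S-adenosylmethionine, was at 57.1, 56.6 and 53.6 FPKM in GM and at 44.1, 44.6 and 49.8 in DM, without overlap, a change of -0.27 (adjusted p = 0.00795, limma with Benjamini-Hochberg adjustment). MAT2B, the regulatory subunit of that enzyme, had overlapping groups and a change of 0.06 (adjusted p = 0.501, limma with Benjamini-Hochberg adjustment). Of these 33 genes 24 carried a GM peak and 27 a DM peak, beside 70.9% and 78.7% of all tested genes. The median highest fold enrichment of those with a peak was 4.50 in GM and 4.80 in DM. It was 4.41 and 4.55 for all genes with a peak, and 3.91 and 5.01 for the writers and erasers that had one.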

How the data were processed

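Input and m6A IP libraries (3 each in GM and DM) were strand-specific. Per the methods, reads were trimmed with Trimmomatic and aligned with HISAT2 to ARS-UCD1.2. The submitters' processing notes name cutadapt and fastp in place of Trimmomatic, and which made the files is not known. The authors deposited StringTie FPKM for the 6 inputs. Their exomePeak lists, 1 per group over pooled libraries with ChIPseeker annotation, hold the fold enrichment, a linear ratio of IP over input computed by the authors. The lists also hold the deposited p-value of each peak and the deposited log10 values of the p-value and false discovery rate, some of them minus infinity, which were read as score columns of the authors. The deposited tables hold no read counts and the read totals in the study's tables were not used, so the precision of FPKM is given by the spread of 3 libraries.

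Genes whose mean FPKM reached 0.5 were tested with limma 3.58.1 in R 4.3.3 on log2(FPKM + 1) with a variance trend and Benjamini-Hochberg adjustment over all 12302 genes. A fold change is on that scale, which understates changes of low genes. Peaks were taken by gene name and paired in Python 3.11.15 (pandas 2.3.3, numpy 2.4.6, figures with matplotlib 3.10.9) where they shared 1 base or more of exon on 1 strand. The DM list repeats 2 rows, none of them in these genes. The fit and the pairing were tested on simulated data. Named are the 9 genes, listed machinery genes past 1.5-fold, METTL16, RBM15B, PCIF1 and MAT2A, the 3 genes nearest to the called gene with the largest statistic, and markers. FXR2, EIF3A, HNRNPA2B1, IGF2BP1, IGF2BP2, IGF2BP3, YTHDC2, LRPPRC, PRRC2A and MAT2B were named outside this rule. The genes and lists were chosen with earlier results of these data known. Distances to gene ends and ratios within libraries were added after the data were seen. Alternatives covered the pseudocount, filter, size factors, TPM, trend, replicate block, each library left out, thresholds, stricter peak sets and the overlap rule. Motif searches were not run.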

Additional observations from a re-analysis of the deposited data

How the results depend on the processing

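The count of writers and erasers called lower in DM (1, VIRMA) became 0 on TPM and at an adjusted p under 0.01, and ranged from 1 to 2 when each library was left out (RBM15 joined without GM replicate 1, FTO without GM replicate 3). The count called higher (0) became 1 with size factors and 2 on TPM. Signs turned for METTL3, METTL14 and WTAP with size factors (0.00786, 0.0556 and 0.0427) and on TPM (0.0668, 0.12 and 0.10), and for CBLL1 on TPM (0.0361). With libraries left out, METTL14 ranged from -0.0770 to 0.0672 and WTAP from -0.0491 to 0.0173, and VIRMA kept its call, with adjusted p of 0.00593 to 0.0492 (limma with Benjamini-Hochberg adjustment). There was no sign that replicate numbers paired the samples (r of same-numbered deviations across 12302 genes -0.08, -0.12 and -0.21). Deviations from means of 3 libraries cannot show that they were unpaired. With a replicate block VIRMA stayed at -0.21 with an adjusted p of 0.0469, the count called lower stayed at 1, and machinery genes called higher went from 2 to 0. That last count was also 1 without the filter, 1 without the trend and 0 to 1 with libraries left out, machinery genes called lower were 5 on TPM against 9, and those past 1.5-fold ranged from 1 to 2. At a fold enrichment of at least 2, DM peaks went from 17 to 10 and GM peaks from 14 to 11, so that the order of the lists turned, and ALKBH5 had none. Pairs past a ratio of 1.5, METTL14 alone, went from 1 to 0 with 50% overlap of both peaks, after division by the median ratio and at a ratio over 2, its log2 ratio being 0.52 after that division. The causes of these shifts were not tested. The deposited tables hold no read counts, and library totals stated elsewhere were not used, so no limit from depth is given. The motif alternatives were not run.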
